A study of Rattus norvegicus with 12 samples.

Results

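Expression of keratins and of 3 further genes of epithelia was followed on 12 one-colour arrays of fetal pituitaries from Wistar rats, taken on gestational day 18. The genes were given by name as Krt5, Krt14, Krt15, Krt17, Krt8, Krt18, Lgals7, Perp, Sfn and Dapl1, and they were read from the probes that carry these names in the scanner files. Of the 10 names, 9 were measured, among 19378 genes kept in all, and Sfn was not analysed here. The list was chosen by the levels on these same arrays: Krt5 and Dapl1 had small p-values in earlier fits of TCDD against control, and the other epithelial genes were set beside them, so the differences between TCDD and control below are a description and carry no test. The 4 groups held 3 arrays each: male fetuses exposed to TCDD, male control fetuses, female fetuses exposed to TCDD, and female control fetuses. Sex and exposure were read from letters in the sample titles (M or F, T or C), and no check against sex-linked genes is given here. TCDD is a dioxin, tetrachlorodibenzo-p-dioxin, that binds the aryl hydrocarbon receptor, and the series title states that exposure was maternal. The labels give all groups the same strain, age and tissue. They give no dose, no day of dosing and no litter, and whether RNA was pooled is not stated, so p-values measure only the spread between these arrays.

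Keratins are the intermediate filament proteins of epithelial cells, and each filament needs a type I and a type II partner. Krt5 (type II) pairs with Krt14 (type I) in the basal layer of stratified epithelia such as the epidermis, where Krt15 (type I) is also a basal keratin and Krt17 (type I) is typical of hair follicles and of wounded skin. Krt8 (type II) and Krt18 (type I) form the filaments of simple epithelia, to which the gland cells of the anterior pituitary belong. Lgals7 encodes galectin-7, a lectin of stratified epithelia. Perp encodes a membrane protein of desmosomes, the junctions on which keratin filaments are anchored. Dapl1 encodes a small protein named for its likeness to death-associated protein and described in differentiating epithelia. The pituitary's anterior lobe grows from the oral ectoderm, which also lines the mouth with stratified epithelium.

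Each gene was read by 1 probe of 60 bases. The probes of the 5 keratins below are shown because keratins resemble each other, and a probe that also matched a relative's transcript would mix their signals. Capitals mark the longest run of bases that the probe has in common, on the same strand, with a probe of any other gene on the array.
Krt5: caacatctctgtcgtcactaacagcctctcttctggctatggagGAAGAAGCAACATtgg
Krt14: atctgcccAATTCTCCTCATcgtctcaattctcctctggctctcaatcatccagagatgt
Krt15: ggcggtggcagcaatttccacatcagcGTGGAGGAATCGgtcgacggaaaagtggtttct
Krt17: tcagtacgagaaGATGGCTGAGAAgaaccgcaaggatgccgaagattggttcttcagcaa
Krt8: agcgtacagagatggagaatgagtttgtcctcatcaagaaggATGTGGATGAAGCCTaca
The shared run was 12 bases long for Krt14, Krt15 and Krt17, 13 for Krt5 and 15 for Krt8, and for the Krt18 probe, not shown, it was 24 bases with the probe of LOC683212. Only probes were compared with each other, so a match to another part of a relative's transcript was not tested, and the keratin signals are uncertain to that extent. On rn4, the build of the file headers, the files placed the Krt17 probe at chr10:89187269-89187328, the Krt15 probe at chr10:89072179-89072238 and the Krt14 probe at chr10:89144454-89145130, all on the minus strand. The Krt8 probe lay at chr7:140716967-140717949 on the minus strand. The spans of 677 bases for Krt14 and 983 bases for Krt8 mean that the 60 bases were aligned with a gap. The Krt5 and Krt18 probes were listed as unmapped. The Perp probe lay at chr1:13988738-13988797, the Lgals7 probe at chr1:83969956-83970015 and the Dapl1 probe at chr3:41207756-41207815, all on the plus strand. An rn4 gene annotation was not used here, so exons are not named.

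A level here is the log2 of the deposited processed intensity minus the 75th percentile of the array's spots that are not controls. Levels are compared between arrays for 1 probe and not between probes. Between 75.1% and 78.4% of the 42877 such spots of an array lay well above background, and none was saturated. Precision is set by the small number of arrays. The lowest level that was well above background lay between -6.88 and -6.31 on the 12 arrays. Krt5, with levels between -6.45 and -4.59, was thus close to it, and so were the low values of Krt14 and Krt17. All 9 genes were well above background on every array, with the exception of Krt17 on male control array 2. Krt8 and Perp had 10 spots each on an array, and their spots had an SD of 0.035 to 0.085 and 0.034 to 0.097 on the log2 scale.

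Several arrays stood apart in genes of other cells. The mean level of 25 markers of sensory ganglion neurons, all of them measured, was high on male TCDD arrays 1 and 2, male control array 2, female TCDD arrays 1 and 3 and female control array 2 (0.16 to 1.57), against -3.54 to -2.90 on the other 6. Where the 6 high arrays are left out below, male TCDD array 3 and female TCDD array 2 are the only exposed arrays of their sex. Krt1 and Krt10, the keratin pair of the epidermal layers above the basal one, were highest on female control arrays 2 and 3 and next on female TCDD array 1. Male TCDD array 1 held the highest level of Krt15, Krt17, Krt8 and Perp. The arrays also sat on 3 slides: slide 1 held male TCDD array 1 and the 3 male controls, slide 2 male TCDD arrays 2 and 3 with female control arrays 1 and 2, and slide 3 the 3 female TCDD arrays with female control array 3. Within a slide, the exposures can therefore be compared only through male TCDD array 1 in males and female control array 3 in females. In these bulk samples, fewer cells of a type and less RNA per cell cannot be told apart.

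Dapl1 was lower in both sexes on exposed arrays, and in females every measured gene of the list but Krt15 was lower on all 3 exposed arrays than on any control array. In males the genes split, with Krt17 and Krt14 higher on average on exposed arrays and Dapl1 and Lgals7 lower. The median difference over the 9 genes was 0.22 on the log2 scale in males, where the median of all genes was -0.01, and -0.61 in females, where it was -0.03. Of the 9 genes, 5 had a positive and 4 a negative difference in males, and 1 had a positive and 8 a negative difference in females. In females the groups did not overlap for those 8 genes, all lower in TCDD, where 5.46% of all genes did so. In males, 1 gene (Krt17) lay above all controls, as 8.54% of all genes did, and 2 (Lgals7 and Dapl1) lay below, as 5.92% did. The female control arrays enter both the choice of Krt5 and these counts, so nothing is read from them. The limma fit over all genes called 0 of the 9 in either sex at an adjusted p below 0.05, where 0.0103% of all genes were called in males and 0.0103% in females. At an unadjusted p below 0.05 there were 2 of the 9 in males (9.41% of all genes) and 4 of the 9 in females (2.64%), and over both sexes there were 3 (6.45%). No member lay above all controls in females, as 1.49% of all genes did. The counts in males and females were read against separate controls and are given side by side.

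**Figure D1:**
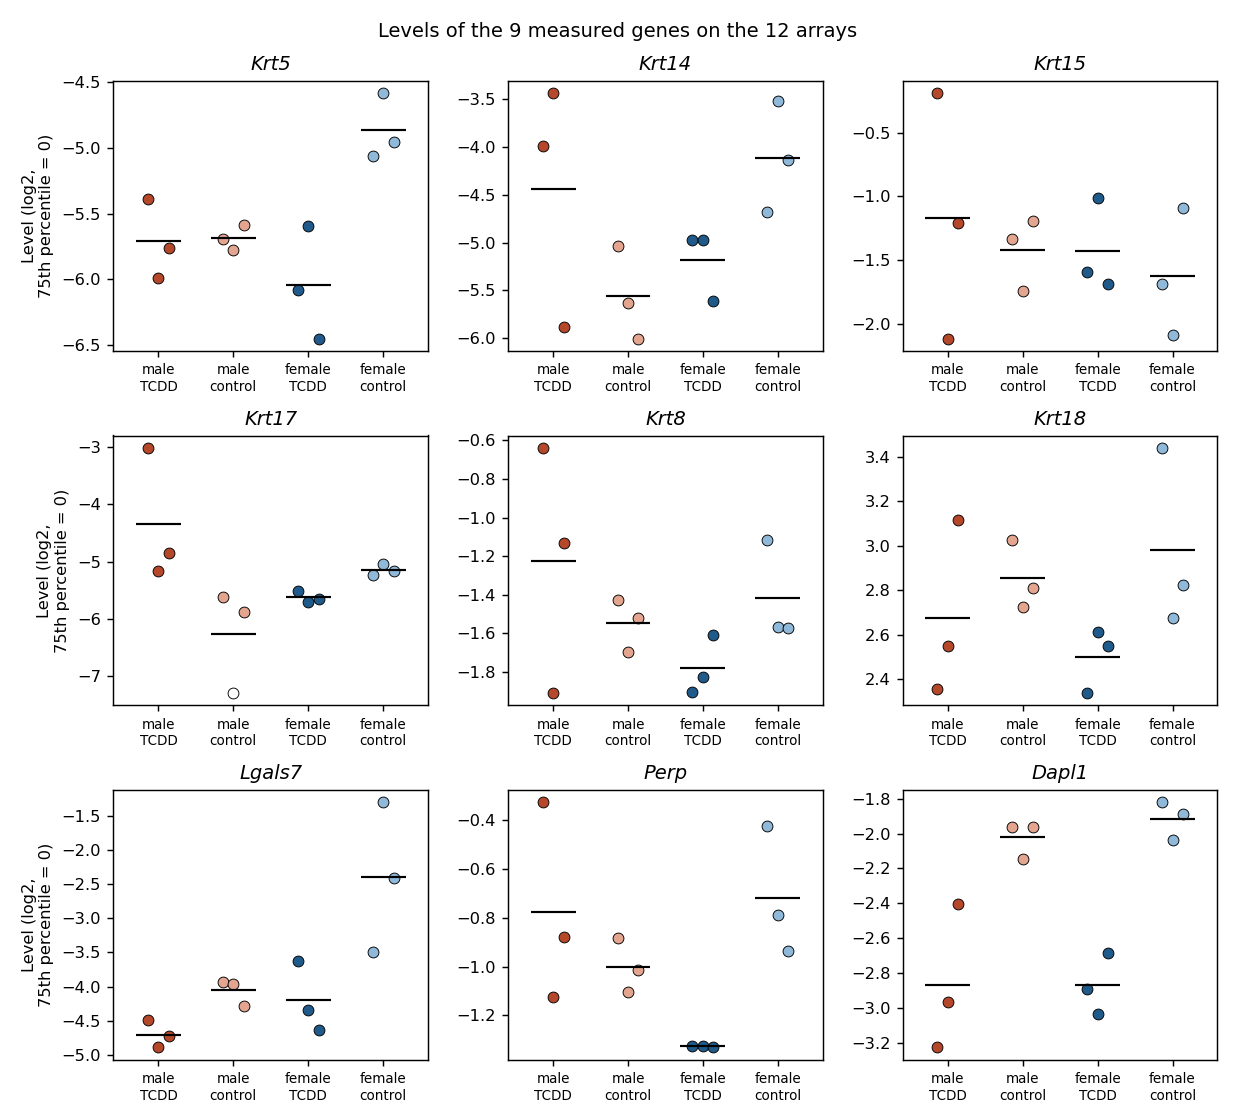
Levels (log2, with the array's 75th percentile at 0) of the 9 genes on the 3 arrays of each group, 1 panel a gene with its own vertical scale. Filled points are arrays, the open point is the Krt17 value that was not well above background, and lines are group means. Dapl1 lay at or below -2.41 on the 6 exposed arrays and at or above -2.14 on the 6 controls, and Lgals7 reached -1.30 on a female control array.

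The basal keratin Krt5 was lower in exposed females and near its control level in exposed males. Its level was -6.08, -5.59 and -6.45 on female TCDD arrays 1 to 3, against -5.06, -4.59 and -4.95 on the female controls. The female groups did not overlap, and the difference was -1.17 (standard error 0.26), or 2.26-fold lower in TCDD. In males the level was -5.39, -5.99 and -5.76 with TCDD, against -5.69, -5.77 and -5.59 in controls. The male groups overlapped, and the difference was -0.03 (standard error 0.26). Within slide 3 the female difference was -1.09, and without female control arrays 2 and 3 it was -0.98. It was -0.37 after normexp background correction with an offset of 50, a setting that shrinks differences of dim spots, and -0.59 when the 6 arrays high in ganglion markers were left out.

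Krt14, the partner of Krt5 in basal cells, varied widely within groups. Its level was -3.99, -3.44 and -5.88 on male TCDD arrays 1 to 3, against -5.03, -5.64 and -6.01 on the male controls. Exposed arrays 1 and 2 lay above every male control, and exposed array 3 lay among them. In females the level was -4.97, -4.97 and -5.62 with TCDD, against -4.68, -3.52 and -4.14 in controls. The difference was 1.12 (standard error 0.57) in males and -1.07 (standard error 0.57) in females. The male difference was 0.62 without male TCDD array 2 and 1.85 without male TCDD array 3. It was -0.36 without the 6 arrays with ganglion markers, where it rests on male TCDD array 3 alone. The female difference was -0.50 without female control arrays 2 and 3 and -0.51 with normexp.

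Krt17, the keratin of hair follicles and wounded skin, lay on opposite sides of control in the sexes. Its level was -3.01, -5.16 and -4.85 on male TCDD arrays 1 to 3, against -5.62, -7.30 and -5.88 on the male controls, where the second array was not well above background. In females it was -5.52, -5.70 and -5.66 with TCDD, against -5.23, -5.05 and -5.16 in controls. Every exposed male lay above every male control and every exposed female below every female control, a pattern that 0.366% of all genes had in one direction or the other. The difference was 1.93 (standard error 0.55), or 3.80-fold, in males, and -0.48 (standard error 0.55) in females. It was 3.25 in males within slide 1, which compares male TCDD array 1 alone. The male difference was 1.26 without male TCDD array 1, 1.41 without male control array 2, 0.90 without the 6 arrays with ganglion markers and 0.57 with normexp.

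Krt15, the other basal keratin, showed no common direction among exposed arrays. Its level was -0.19, -2.11 and -1.21 on male TCDD arrays 1 to 3, against -1.33, -1.74 and -1.19 on the male controls. The exposed males thus held both the highest and the lowest of the 12 levels. In females it was -1.59, -1.01 and -1.68 with TCDD, against -1.69, -2.09 and -1.09 in controls. The groups overlapped in both sexes, with differences of 0.25 in males and 0.19 in females (standard error 0.43 each). Without male TCDD array 1 the male difference was -0.24. The female difference was -0.34 within slide 3, -0.04 without female control array 2, -0.016 without female TCDD array 2 and 0.46 without female control array 3.

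The simple-epithelium pair was measured well above background throughout, with Krt18 above the 75th percentile on all 12 arrays (2.34 to 3.44) and Krt8 between -1.91 and -0.64. Both differ from the rest of the list in kind, since they mark simple and not stratified epithelia. Krt18 stood at 2.34, 2.61 and 2.55 on female TCDD arrays 1 to 3, against 3.44, 2.67 and 2.82 on the female controls. In males it stood at 2.36, 2.55 and 3.12 with TCDD, against 3.02, 2.72 and 2.81 in controls. The female groups did not overlap and the male groups did, with differences of -0.48 in females and -0.18 in males (standard error 0.22 each). Without female control array 1, which held the highest level, the female difference was -0.25, and without female control arrays 2 and 3 it was -0.94. Krt18 lay between 2.34 and 2.72 on the 6 arrays with high ganglion markers and between 2.61 and 3.44 on the other 6, and the part of this in the differences was not tested. Without those 6 arrays the Krt18 difference in males was 0.20.

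Krt8, the partner of Krt18, was highest on male TCDD array 1. Its level was -0.64, -1.91 and -1.13 on male TCDD arrays 1 to 3, against -1.43, -1.69 and -1.52 on the male controls. Female TCDD arrays stood at -1.90, -1.82 and -1.61, against -1.11, -1.57 and -1.57 on the female controls. The male groups overlapped, with a difference of 0.32 (standard error 0.27) that was 0.03 without male TCDD array 1. The female difference was -0.36 (standard error 0.27), and the closest exposed and control arrays, at -1.61 and -1.57, were separated by less than the spread within either group. It was -0.21 within slide 3, -0.21 without female control array 1 and -0.66 without female control arrays 2 and 3.

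Perp, the desmosomal gene, behaved much like Krt8 from array to array. Its level was -1.32, -1.33 and -1.33 on female TCDD arrays 1 to 3, against -0.42, -0.79 and -0.94 on the female controls. In males it was -0.33, -1.13 and -0.88 with TCDD, against -0.88, -1.10 and -1.01 in controls. The exposed females held the 3 lowest levels of all 12 arrays, while exposed males overlapped their controls. The difference was -0.61 (standard error 0.19), or 1.53-fold lower, in females, and 0.22 (standard error 0.19) in males. Without male TCDD array 1 the male difference was -0.0005. Within slide 3 the female difference was -0.39.

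Lgals7 was lower on the exposed arrays of both sexes. Its level was -3.63, -4.34 and -4.63 on female TCDD arrays 1 to 3, against -3.49, -1.30 and -2.40 on the female controls. In males it was -4.49, -4.89 and -4.73 with TCDD, against -3.93, -3.96 and -4.28 in controls. The groups did not overlap in either sex, but female TCDD array 1 (-3.63) lay close to female control array 1 (-3.49), and both lay below female control arrays 2 and 3. The difference was -1.80 (standard error 0.46), or 3.49-fold lower, in females, and -0.64 (standard error 0.46), or 1.56-fold lower, in males. Without female control arrays 2 and 3 it was -0.71 in females. With normexp it was -1.21 in females and -0.31 in males.

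Dapl1 was the only one of the 9 genes for which all 6 exposed arrays lay below all 6 controls, as 0.217% of all genes did. Its level was -3.23, -2.97 and -2.41 on male TCDD arrays 1 to 3, against -1.96, -2.14 and -1.96 on the male controls. In females it was -2.89, -3.03 and -2.69 with TCDD, against -1.82, -2.04 and -1.89 in controls. The 6 controls spanned a narrow range, while male TCDD array 3 was the exposed array nearest to them. The difference was -0.85 (standard error 0.19), or 1.80-fold lower, in males, and -0.96 (standard error 0.19), or 1.94-fold lower, in females. Over both sexes it was -0.90 (standard error 0.13), or 1.87-fold lower. Within slides it was -1.21 in males and -0.99 in females. Without the 6 arrays with ganglion markers it was -0.45 in males, where it rests on male TCDD array 3 alone, and -1.18 in females, where it rests on female TCDD array 2 alone. Without male TCDD array 3 the difference over both sexes was -1.02. Over both sexes 0 of the 9 genes were called, where 0.0206% of all genes were, and Dapl1 and Lgals7 were the 2 genes lower without overlap within each sex, as 0.372% of all genes were.

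**Figure D2:**
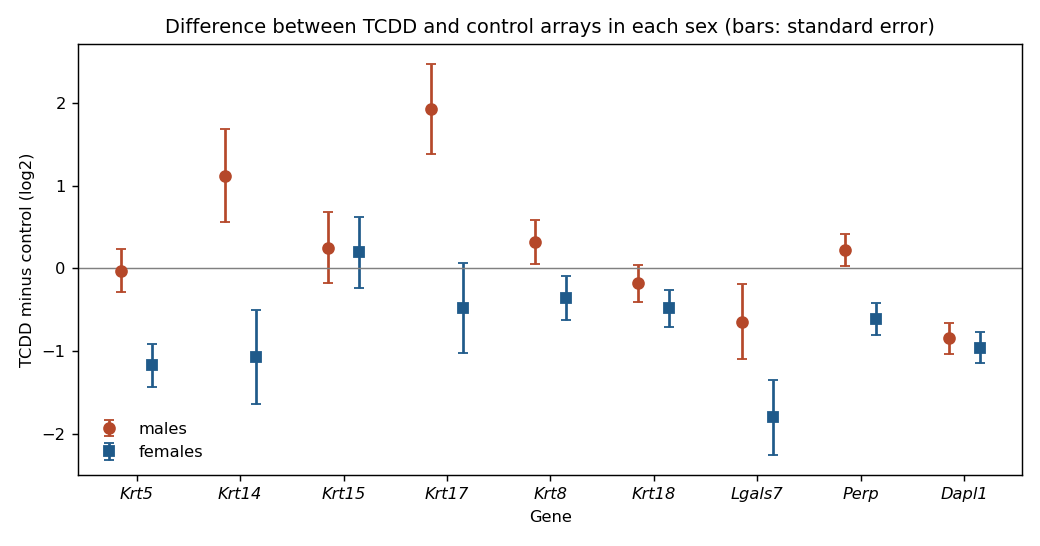
Difference between TCDD and control arrays (log2, vertical axis) for each gene (horizontal axis) in males (circles) and females (squares), with bars of 1 standard error from the fit over all 12 arrays. Dapl1 lies at -0.85 in males and -0.96 in females, while Krt17 lies at 1.93 in males and -0.48 in females.

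The difference between the sexes in the TCDD difference, males minus females, was positive for all 9 genes on the main scale. It was 2.41 (standard error 0.78) for Krt17, 2.19 (standard error 0.80) for Krt14, 1.15 (standard error 0.36) for Krt5 and 0.84 (standard error 0.27) for Perp. For Dapl1 it was 0.11 (standard error 0.26). The fit called 0 of the 9, and 0.00% of all genes were called, while 4 had an unadjusted p below 0.05, as 4.48% of all genes did. The median over the 9 genes was 0.84, against 0.05 over all genes. The sign turned under some alternatives for Krt15 (down to -0.77, same sign in 17 of 27 settings), Dapl1 (down to -0.22, same sign in 24 of 27), Krt18 (-0.17) and Krt8 (-0.01). The value was 0.20 for Krt14 without the 6 arrays with ganglion markers, 0.07 for Lgals7 without female control arrays 2 and 3, and 0.31 for Krt5 and 0.69 for Krt17 with normexp.

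Male and female controls were compared as well. All 3 male controls sat on slide 1, and the female controls sat on slides 2 and 3. Sex and slide therefore cannot be told apart in this contrast. This contrast was not itself used to choose the genes, but the female controls that stood high against exposed females in the choice of Krt5 enter it again. That reuse favours lower values in male controls, so its p-values and counts are not independent of the choice. Lgals7, Krt5, Krt14 and Krt17 were lower in all 3 male controls than in any female control, and 8.57% of all genes were lower without overlap. None of the 9 was higher without overlap, as 2.01% of all genes were. None passed the test. Lgals7 averaged -4.06 ± 0.20 in male controls and -2.40 ± 1.09 in female controls (SD, n = 3 each), a difference of -1.66 (standard error 0.46, limma adjusted p = 0.708). Krt5 averaged -5.68 ± 0.09 in male controls and -4.87 ± 0.25 in female controls, a difference of -0.82 (standard error 0.26, limma adjusted p = 0.747). The Krt14 difference was -1.45 (standard error 0.57, limma adjusted p = 0.812) and that of Krt17 was -1.12 (standard error 0.55, limma adjusted p = 0.964). Of the 9 genes, 0 were called by limma, where 0.0103% of all genes were called, and 3 had an unadjusted p below 0.05, as 5.51% of all genes did. Without female control arrays 2 and 3 the Lgals7 difference was -0.57 and that of Krt14 was -0.88. For Dapl1 the controls of both sexes were close, with a difference of -0.11 (standard error 0.19).

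Other genes of stratified epithelium were read from lists written with earlier results of these data known. None of their members was called in any comparison. Of 19 genes of the basal layer, 13 were kept, and 11 of them had a positive difference in males and 4 in females, with medians of 0.34 and -0.16. The transcription factor gene Bnc1, of basal keratinocytes, had differences of 1.78 in males and 2.03 in females, but its levels followed the ganglion markers. They lay between -2.54 and -0.88 on the 6 arrays where those were high and between -7.81 and -5.73 on the others. The mean level of all 13 genes, Bnc1 included, also split this way. It was -3.39 to -2.68 on the 6 high arrays and -4.15 to -3.64 on the others. In males the high arrays were TCDD arrays 1 and 2 and control array 2. The part of this in the differences of the basal list was not tested. Of 13 genes of desmosomes and plakins, 8 were kept. All 8 had a negative difference in females, with a median of -0.48, and 5 had a positive one in males, with a median of 0.14. The 4 with the largest difference over both sexes included the plakophilin genes Pkp2 (-0.33 in males and -0.52 in females) and Pkp3 (0.10 and -0.52). The others were the desmocollin gene Dsc2 (-0.10 in males and -0.59 in females) and the plakin gene Evpl (-0.40 and -0.09). The largest positive difference in males was 0.56, for Pkp1, which had -0.23 in females. Over all genes the medians were -0.01 in males and -0.03 in females.

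Of 22 genes of the suprabasal and cornifying layers, 14 were kept, and 8 of these had a positive difference in males and 2 in females, with medians of 0.17 and -0.51. The mean level of the 14 lay between -4.79 and -4.47 in exposed males, -4.88 and -4.47 in male controls, -4.98 and -4.29 in exposed females, and -4.44 and -3.64 in female controls. Female control arrays 2 and 3 set the upper end, and Krt10 was well above background on 6 of the 12 arrays, Sbsn on 7 and Dmkn on 8. Krt10 was at -4.82, -8.89 and -9.19 on female TCDD arrays 1 to 3, against -6.02, -3.25 and -3.88 on the female controls. Krt1 was at -2.34, -4.47 and -4.59 on female TCDD arrays 1 to 3, against -3.86, -1.61 and -1.81 on the female controls. On the male arrays Krt1 lay between -4.99 and -4.32. Dmkn, which encodes dermokine of the upper epidermis, and Sbsn, which encodes suprabasin, were also highest on female control arrays 2 and 3 (-3.48 and -4.79 for Dmkn, -4.79 and -5.22 for Sbsn). These 4 were the only ones of the 14 whose 2 highest levels were on those 2 arrays. Tgm1, which encodes a transglutaminase of the cornified envelope, was highest on male control array 1 (-3.97) and lowest on male TCDD array 1 (-6.24), with differences of -1.09 in males and -0.49 in females. Of the 9 genes, Lgals7 and Krt5 also had their 2 highest levels on these 2 arrays, and Krt14 was higher there than on any exposed female. The part of this signal in their differences was not tested. Without the 2 arrays, female control array 1 was the only female control left. The differences in females were then -0.71 for Lgals7, -0.98 for Krt5, -0.50 for Krt14 and -1.05 for Dapl1. Their sign could not turn, since every female control lay above every exposed female for these genes.

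**Figure D3:**
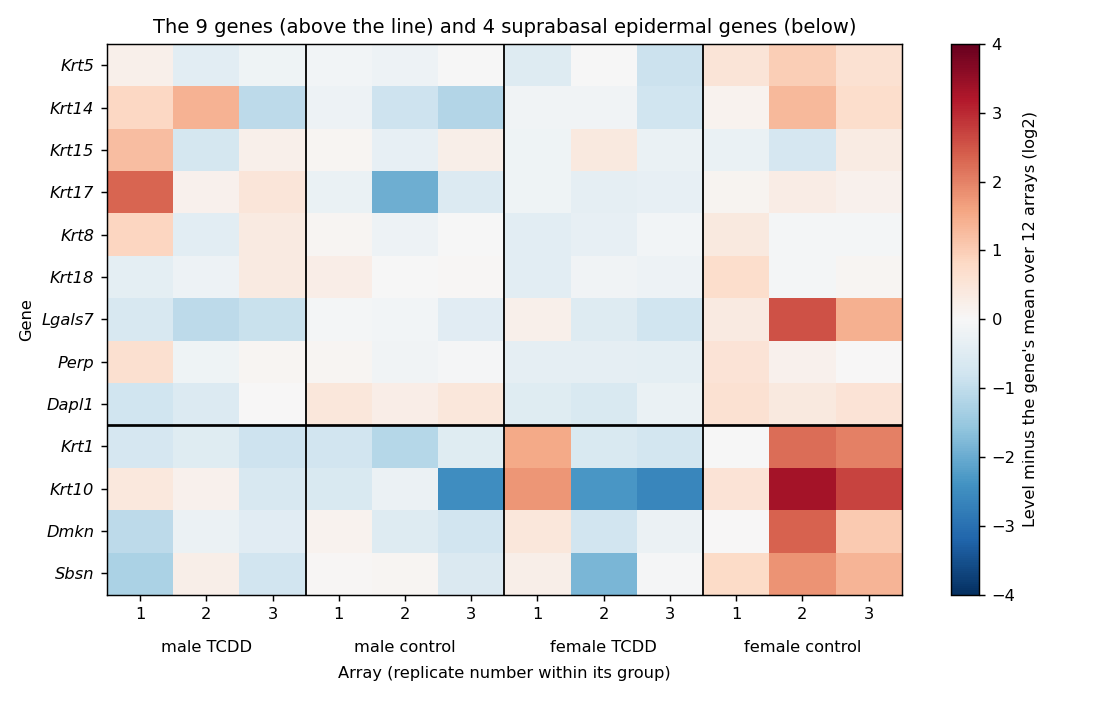
Level of each gene minus its own mean over the 12 arrays (log2, colour), with genes in rows and arrays in columns by group. The 9 genes are above the line, and Krt1, Krt10, Dmkn and Sbsn, genes of the suprabasal epidermis, are below it. Those 4 are the only ones of the 14 kept suprabasal genes with their 2 highest levels on female control arrays 2 and 3. Female control arrays 2 and 3 are high in the lower 4 rows and in Lgals7, and they also hold the highest Krt5 levels. Male TCDD array 1 is high in Krt17, Krt15 and Krt8.

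No gene of simple epithelium, of hormone cells or of pituitary progenitors was called in any comparison. Of 23 genes of simple epithelium, 21 were kept, and 14 of them had a negative difference in males and 18 in females, with medians of -0.17 and -0.46. The mean level of the 21 was -1.13 in exposed males and -1.13 in male controls, and -1.32 in exposed females and -0.94 in female controls. Prss8, which encodes the membrane protease prostasin, had differences of -0.54 in males and -0.66 in females, and the tight junction gene Cldn4 had -0.36 and -0.68 in males and females. Elf3, an epithelial transcription factor gene, went the other way, with 1.27 in males and 0.33 in females. Of 12 genes of hormone cells, all kept, 11 had a negative difference in each sex, with medians of -0.60 in males and -0.51 in females. Of 12 progenitor genes, 10 were kept, and 6 had a negative difference in males and 9 in females.

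Among the 42 keratin genes on the array outside the member list, 21 were kept, and 9 of these 21 are also in the basal, suprabasal or simple-epithelium lists above. Their median difference was 0.15 in males and -0.23 in females, with 11 positive in males and 4 in females. Krt6c, a further type II keratin gene, was at -3.17 on male TCDD array 1, the array on which Krt17 was also highest, and at or below -4.60 on the other 11 arrays. It was well above background on 3 of the 12 arrays. Krt23 had differences of 1.13 in males and 0.54 in females.

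The lists for other tissues were read in the same way. Of 18 skeletal muscle genes, 15 were kept, with medians of -0.54 in males and -0.17 in females. Of 12 cartilage and bone genes, 11 were kept, with medians of 0.05 and 0.19 in males and females. Of 12 genes of respiratory and glandular epithelium, 4 were kept, with medians of -0.12 and -0.37. The ganglion list had medians of 1.80 in males and 1.05 in females.

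The partners of a filament were not the pairs that followed each other most closely across the 12 arrays. The correlation of levels was 0.50 for Krt5 with Krt14 and 0.31 for Krt8 with Krt18 (Pearson, 12 arrays, given as a description). The closest pairs were Krt8 with Perp (Pearson 0.88, Spearman 0.85), Krt5 with Lgals7 (Pearson 0.79, Spearman 0.61) and Krt18 with Dapl1 (Pearson 0.74, Spearman 0.81). After the 4 group means were subtracted, Krt8 and Perp kept 0.91 and Krt18 and Dapl1 kept 0.73, while Krt5 and Lgals7 had 0.48. Krt14 and Dapl1 were at -0.78 on that scale. The arrays share their exposure, sex and tissue content, which these values do not take apart.

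**Figure D4:**
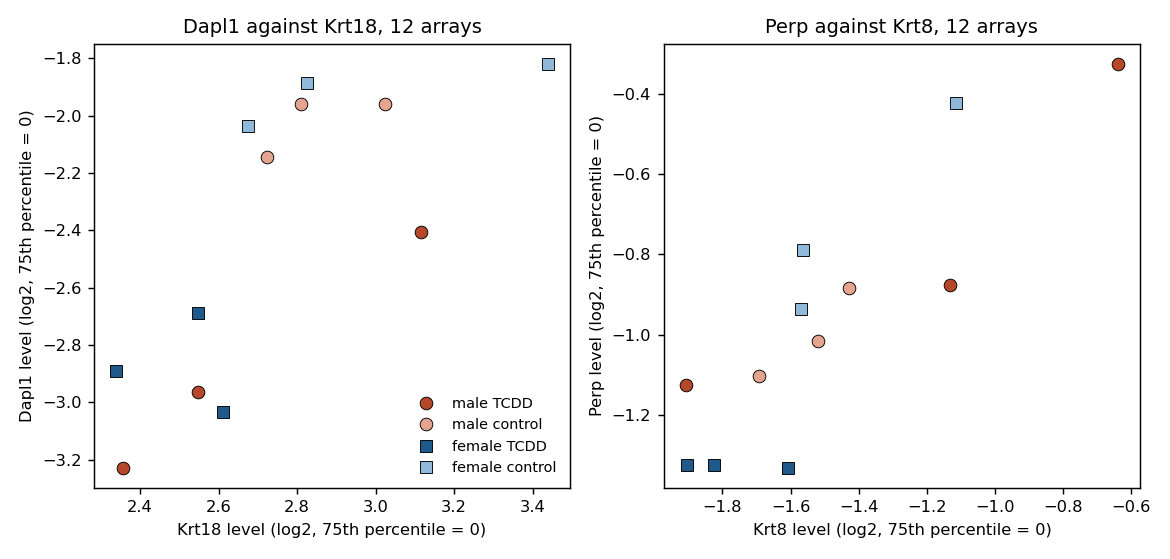
Level of Dapl1 against Krt18 (left) and of Perp against Krt8 (right), both log2 with the array's 75th percentile at 0, 1 point an array on 12 arrays. Dapl1 separates exposed from control arrays while Krt18 does not, and male TCDD array 1 and female control array 1 hold the highest Krt8 and Perp levels.

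Over 19346 genes with a value on every array, those whose level followed a member most closely over the 12 arrays differed from gene to gene. Krt18 was followed by Smim22 and Cyb561 (Pearson 0.98 each), Syt17 (0.98), Lrrc8e (0.97) and St14 (0.97), and St14 is also on the simple-epithelium list. Dapl1 was followed by Derl3 and Dach2 (0.95 each), Kcng2, Clic5 (0.94 each) and TC589269 (0.94), and after subtraction of group means by Lactb and Kcng2 (0.97 each) and by the pituitary progenitor gene Lhx4 (0.94). Lgals7 was followed by Fam25a (0.93), the hair keratin-associated gene Krtap14l (0.92) and Dmkn (0.91). Krt5 was followed by Il20 (0.88) and Vom2r2 (0.87), and Krt14 by Defb20 (0.85) and Lor (0.82), which encodes loricrin of the cornified envelope. Krt15 was followed by Srcin1 (0.93), Krt17 by Ube2s (0.94), Perp by LOC684158 (0.91) and Krt8 by the unnamed probe A_64_P013258 (0.99). Each is among the 5 highest of 19346 values for its member, over only 12 arrays.

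The aryl hydrocarbon receptor, to which TCDD binds, recognises DNA with the core GCGTG. RefSeq promoters on GRCr8, from 250 bases before to 50 bases after the start site, were matched for 7 of the 10 names. Searched on both strands (GCGTG or its complement CACGC), the core was in 9939 of 33469 promoters (29.7%). Among the measured members with a promoter it was in Lgals7 and Perp, with 1 match each, and it was not in these windows of Krt5, Krt8, Krt18 and Dapl1. A match of these letters describes the sequence alone.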

How the data were processed

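Total RNA of fetal pituitaries was labelled with Cy3 and hybridised to rat arrays of 60-base probes, per the labels' protocols. The authors deposited scanner files with spot intensity on a linear scale, written by Agilent Feature Extraction 10.7.1.1 per the file headers (9.5.1.1 is the version in the submitters' processing notes), with the program's other deposited flags for background, saturation and outliers. The authors' deposited value table holds intensity values with a median of 83.5 in each of its 12 columns and ranks that matched those of the scanner values (Spearman 1.0000), so that scale and centring were inferred to be linear and between arrays, and it was used as an alternative.

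From these, the log2 of the processed intensity minus the array's 75th percentile was computed, without control spots and outlier spots, and spots of a probe were averaged. Probes well above background on at least 3 of 12 arrays with at least 10 values were kept, and the brightest kept probe of a gene was used, which gave 19378 genes. RefSeq gene names of GRCr8 were matched to 18006 of 30367 probes through the accession and to 2654 through the symbol, and 9707 kept the file's name. Means of the 4 groups were fitted on all 12 arrays with limma 3.58.1 in R 4.3.3, with empirical Bayes variances that follow intensity. P-values were adjusted by Benjamini-Hochberg across 19378 genes, and calls are at an adjusted p below 0.05. The fit was also run on simulated data with known differences and independent noise. Those data had no slide or ganglion effects, so the run checks the code and not how the fit handles such effects.

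The genes and all lists were chosen with earlier results of these data known. From each list, up to 4 genes with the largest difference over both sexes were marked for naming. Only some of these are printed, and for some lists none. For likeness the 5 genes with the highest correlation were taken for each member, of which some are printed. Alternatives were the background correction, normalization, filters, slide, replicate number, array weights, single arrays left out and the ganglion markers. After group means were subtracted, same-numbered male and female controls had correlations of 0.13, 0.75 and 0.35. Male control array 1 was closest to female control array 3, and both control arrays numbered 2 had high ganglion markers. Same-numbered TCDD and control arrays had -0.22 to 0.44 in males and -0.70 to -0.37 in females. Male TCDD arrays 2 and 3 were closest to the male control of their own number. These values do not settle whether the numbers mark pairs, and they were treated as pairs only in alternative fits.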

Additional observations from a re-analysis of the deposited data

Results flagged for a closer look

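Krt17 was singled out because every exposed male lay above every male control and every exposed female lay below every female control. The TCDD difference in males minus that in females was 2.41 on the log2 scale (standard error 0.78). It was 0.69 with normexp background correction and lay between 0.69 and 3.72 over all alternatives. The fit called 0 genes for this difference, with a limma adjusted p of 0.88 for Krt17, and 0.366% of all genes showed such an opposite pattern. Male control array 2, with the lowest Krt17 level (-7.30), was not well above background, and male TCDD array 1 held the highest (-3.01).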

How the results depend on the processing

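All alternatives kept the sign of the Dapl1 difference (-1.21 to -0.45 for males, -1.18 to -0.76 for females, -1.10 to -0.71 over both sexes). Since all 6 exposed arrays lay below all 6 controls, leaving out arrays or comparing within slides could not have turned it. The count of members called was 0 under every alternative but 2. Array quality weights called 6 members in males and 5 over both sexes, in a fit that gave male TCDD array 2 a weight of 332, did not converge and called 8560 genes in males, and leaving out arrays one at a time gave 0 to 1 over both sexes (1 without male TCDD array 3). These calls are on the contrast that chose the genes and support nothing. Calls over all genes, 2 in males, 2 in females, 4 over both sexes and 2 between controls in limma, were 0 in each comparison without the 6 arrays with ganglion markers, and 27, 15 and 10 with slide as a fixed block in males, over both sexes and between controls. Slide 1 alone gave 277 calls for males and slide 3 alone gave 0 for females, where 1 arm is a lone array assumed to vary like the others. The replicate block gave 2 over both sexes, and 0 between controls in the paired fit on the 6 controls alone. The median difference of the members in males was 0.67 both with slide as a fixed block and within slide 1. Those 2 settings give the same estimate, which rests on male TCDD array 1. The median in males was -0.31 with array weights and between -0.0207 (without male TCDD array 1) and 0.40 when single arrays were left out. It lay between -0.72 and -0.52 in females and between -0.25 and -0.12 over both sexes when single arrays were left out, and over both sexes it was 0.14 with slide as a fixed block. With the replicate number as a block the medians were 0.22 for males, -0.61 for females and -0.19 over both, 0 members were called, and the paired fit on the 6 controls alone also called 0 members, so the block changed no call among the 9 members. Between male and female controls the sign turned with slide as a fixed block for Krt15 (-1.01), Krt18 (0.27) and Dapl1 (0.45). No slide held controls of both sexes, so that fit joined them only through the exposed male arrays on slides 1 and 2. With slide as a random block the sign turned for Krt15 (-0.10). When single arrays were left out it turned for Krt8 (-0.21 to 0.0205), Krt18 (-0.28 to 0.10) and Krt15 (-0.0329 to 0.46). Leaving out female control array 1 turned Krt8 and Krt18, and leaving out female control array 2 turned Krt15. No member was called in any of these fits. Of 1264 values of single genes under alternatives, 53 outside the contrast between controls moved by more than the spread between replicates. Values between controls were judged only by sign and by call, so their shifts are not in that count. Between controls, Krt8 was -1.09 with slide as a fixed block against -0.13 in the main fit, and Krt17 was -3.11 against -1.12. The causes were not tested. Levels near the background limit those of Krt5, Krt14 and Krt17, which normexp shrinks, and 3 arrays a group limit all differences.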
